A study of Mus musculus with 9 samples.

Results

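The class I odorant receptors are the older, "fish-like" branch of the odorant receptor (OR) family, and in the mouse their genes form a single large cluster on chromosome 7. They were taken as every gene row with a symbol between Olfr543 and Olfr692 and no pseudogene suffix, which gave 115 of the 1107 OR rows (10.4%) in a table of 24421 genes. The main olfactory epithelium (MOE), where the odor-sensing neurons of the nose lie, was profiled as whole tissue by RNA-seq in 9 mice from a line in which TAAR enhancer 1 was deleted by genome editing. This enhancer is a noncoding element between Taar1 and Taar2, on another chromosome than the class I cluster. The groups were 3 wild type (WT), 3 heterozygous (het) and 3 homozygous (homo) mice, each labelled as C57BL/6 at postnatal day 14 with no other allele or agent. The line descends from 1 deletion allele, and the study's reporting summary gives a mixed strain background and an older age for it, a conflict that was not resolved here.

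An olfactory sensory neuron normally expresses 1 allele of a single receptor gene, so the RNA of a receptor in the whole tissue reflects how many neurons chose that gene and how much RNA each of them holds. In bulk tissue, fewer neurons of a type and less RNA per neuron cannot be told apart. Class I ORs are G protein-coupled receptors that are mostly expressed in the dorsal zone of the MOE, the zone in which most TAAR neurons also lie, and many of them respond to water-soluble odorants such as carboxylic acids. The question for these genes was whether loss of a TAAR enhancer alters the receptors that share this zone.

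All 115 genes were placed by GENCODE M21 on chromosome 7 of GRCm38 between positions 102476579 and 105369355, a span of 2892777 bases, with 61 genes on the plus and 54 on the minus strand. The members themselves set the ends of this span, so their lying within it does not check the label, which was given by number alone. The span also holds 9 other OR genes. The annotation calls 114 of them protein coding and 1, Olfr663, a polymorphic pseudogene. Coding length was 924 to 1038 bases in 114 genes, the size of an intact receptor, and the exception was Olfr643, whose model holds only 138 coding bases. Among the 6555 pairs that the 115 predicted proteins form, the median identity was 45.2%. In 8 pairs it was 95% or more, and the highest was 98.7% for Olfr596 and Olfr603.

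Sequences are shown for the near-identical pairs that hold a gene with 1 of the 5 smallest p-values in a comparison of genotypes, because a read can be assigned to such a gene only where it covers a difference. Olfr596 and Olfr603 differed at 5 of 936 aligned coding bases, and their longest identical stretch ran for 295 bases. Olfr583 and Olfr585 differed at 34 of 954 aligned bases, with identical stretches of up to 176 bases, and Olfr671 and Olfr675 at 32 of 951, with stretches of up to 164. Each sequence below is the window of 80 coding bases with the most differences in its pair, from the GENCODE M21 transcripts of GRCm38, written 5′ to 3′ on the coding strand, with the differing bases in capitals.
Olfr596, chr7:103310123-103310202, plus strand: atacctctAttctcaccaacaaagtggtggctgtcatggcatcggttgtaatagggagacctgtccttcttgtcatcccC
Olfr603, chr7:103383521-103383600, minus strand: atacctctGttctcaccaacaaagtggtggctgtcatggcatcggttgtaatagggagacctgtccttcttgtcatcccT
Olfr583, chr7:103051967-103052046, plus strand: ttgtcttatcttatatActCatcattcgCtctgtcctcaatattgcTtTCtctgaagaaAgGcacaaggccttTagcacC
Olfr585, chr7:103098407-103098486, plus strand: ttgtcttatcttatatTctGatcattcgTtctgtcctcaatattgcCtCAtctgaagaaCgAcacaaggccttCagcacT
Olfr671, chr7:104975460-104975539, minus strand: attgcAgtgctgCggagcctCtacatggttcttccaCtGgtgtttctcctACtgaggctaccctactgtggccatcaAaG
Olfr675, chr7:105024443-105024522, minus strand: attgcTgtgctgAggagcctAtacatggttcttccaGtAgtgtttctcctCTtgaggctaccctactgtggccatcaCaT
The 80-base window of Olfr596 and Olfr603 holds 2 differences, that of Olfr583 and Olfr585 holds 10, and that of Olfr671 and Olfr675 holds 9. Over all annotated OR transcripts, 43.8% of the 100-base stretches of Olfr603 occurred in no other gene, against 84.3% for Olfr596, 90.8% for Olfr583 and 91.7% for Olfr585. Among all members, 69 were unique over every 100-base stretch and 12 were unique over less than 90%.

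Each library held 24583906 to 32631951 reads assigned to genes, of which 7126 to 10444 fell in class I ORs. A level is given in CPM, the count scaled to a common depth by the TMM effective library size, so that 3 reads of a gene correspond to 0.0916 to 0.122 CPM, a limit that covers counting error only. The 14 olfactory Taar genes served as a check of the genotypes: they summed to 44.6 to 44.9 CPM in WT, 36.3 to 38.8 CPM in het and 19.3 to 25.3 CPM in homo mice, with no overlap between genotypes. The neuron markers Omp, Gnal, Adcy3 and Cnga2 were all detected, and Omp, the classic marker of mature olfactory neurons, lay between 3045 and 3549 CPM. Vomeronasal receptor genes, which belong to another sense organ, summed to 67.9 CPM in het replicate 1, 120 CPM in homo replicate 2 and 69.5 CPM in homo replicate 3 but to at most 17.3 CPM in the other 6 libraries, while Trpc2, a vomeronasal channel gene, was listed at 0 reads in all 9. The hemoglobin genes Hba-a1, Hba-a2, Hbb-bs and Hbb-bt were listed at 0 reads as well, but Alas2, the remaining blood marker, lay at 5.81 to 18.3 CPM. The 0 values were thus not read as absence of blood, and why these rows are empty was not tested.

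Nearly all class I ORs were detected, each at a low level. Of the 115 genes, 106 had more than 3 reads in every library, 112 had at least 10 reads over the 9 libraries and were tested, and the average library held a median of 60.3 reads per gene. The 3 untested genes were Olfr688 with 0 reads, and Olfr564 and Olfr663 with 5 reads each over all 9 libraries. For Olfr688, 0 reads allow up to 0.122 CPM in the shallowest library, and only 26.4% of its 100-base stretches were unique. The OR genes that were neither members nor placed inside the span are called OR genes outside the cluster here. They had more than 3 reads in every library for 92.7% of 983 genes, against 92.2% of the class I genes. The annotation held a model for 972 of the 983, and their receptor class was not checked.

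Per kilobase of annotated exon, the median class I gene stood at 0.669 CPM in WT mice and the central 50% of genes lay between 0.407 and 1.32 CPM. Olfr672 was highest at 5.93 ± 0.0865 CPM per exon kb (SD, n = 3), followed by Olfr598 at 4.15 ± 0.331, Olfr566 at 3.01 ± 0.532, Olfr549 at 2.97 and Olfr669 at 2.94 CPM per exon kb. The levels of Olfr566, Olfr549 and Olfr669 differed by less than the spread of Olfr566 between mice. Olfr692, Olfr570, Olfr610, Olfr622 and Olfr649 completed the 10 highest, at 2.38 to 2.87 CPM per exon kb. The order depended on the length used: per kilobase of coding sequence the median class I gene stood at 2.32 CPM and the OR genes outside the cluster at 2.06 CPM, Olfr672 remained the highest of the members at 9.44 CPM, and 4 of the 10 highest genes were shared between both orders. On that scale the highest OR gene outside the cluster reached 137 CPM per coding kb. The 10 class I genes with the most reads together made up 21.7 to 23.9% of class I reads in each library.

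**Figure D1:**
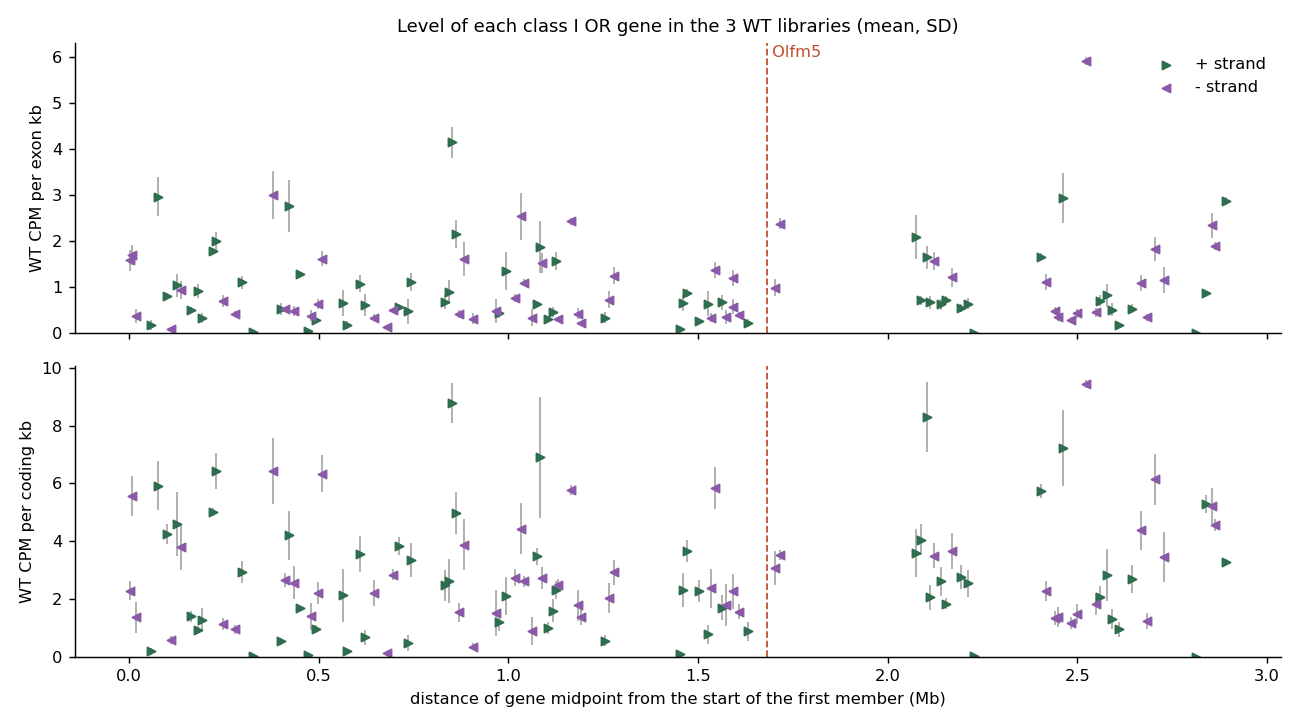
Level of each class I OR gene in WT mice against its distance in Mb from the start of the first member, per kb of annotated exon above and per kb of coding sequence below (Olfr643 left out below because its model has 138 coding bases). Triangles are means of 3 libraries, grey bars are SD, triangle direction and color give the strand, and the dashed line marks Olfm5; genes of high and low level lie side by side along the whole cluster.

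Per kilobase of coding sequence, genes annotated with a single exon had lower levels. The 15 members annotated with a single exon had a median of 0.478 CPM per coding kb in WT mice, against 2.61 CPM per coding kb for the 100 members with more exons, which carry untranslated exons beside the coding one. On that scale the single-exon genes ranged from 0 for Olfr688 to 3.27 CPM per coding kb for Olfr692, and the others from 0.139 to 9.44 CPM per coding kb. This scale counts reads in untranslated exons but leaves those exons out of the length, which raises the genes that have them. Per kilobase of annotated exon, a length that includes them, the median over all 115 genes was 0.669 CPM in WT mice. No medians by exon number are given on that scale. How much of the gap per coding kb stems from the choice of length, or from reads outside the single annotated exon, was not tested. Near-identical pairs also differed in level: in WT mice Olfr596 had 2.47 ± 0.546 and Olfr603 0.350 ± 0.129 CPM per coding kb (SD, n = 3), a 7.07-fold difference. Fewer 100-base stretches of Olfr603 than of Olfr596 were unique, 43.8% against 84.3%, and the part of this in their gap was not tested. Olfr671 had 1.48 ± 0.346 and Olfr675 1.83 ± 0.378 CPM per coding kb (SD, n = 3), a 1.23-fold difference.

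Summed class I expression did not differ between the 3 genotypes beyond the spread between mice. It was 308, 319 and 276 CPM in the WT mice, 298, 328 and 290 CPM in the het mice and 289, 313 and 311 CPM in the homo mice, so all 3 groups overlapped. The mean was 301 ± 22.7 CPM in WT, 305 ± 19.8 CPM in het and 304 ± 13.0 CPM in homo mice (SD, n = 3 each). Relative to WT the sum changed by 1.14% in homo mice (p = 0.8 in a two-sided exact permutation test, and 0.9 after Benjamini-Hochberg adjustment over 3 pairs) and by 1.42% in het mice (p = 0.9, exact permutation test, adjusted p = 0.9), and between homo and het mice by -0.276% (p = 0.9, exact permutation test, adjusted p = 0.9). With 3 mice against 3 this test cannot give a p-value below 0.1. Each of these differences is smaller than the SD within a genotype, and without WT replicate 3 the changes against WT became -2.96% in homo and -2.69% in het mice.

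The share of all OR reads that came from class I genes was 10.2, 10.2 and 8.96% in WT, 10.1, 10.1 and 9.28% in het and 8.83, 9.72 and 9.89% in homo mice, with overlapping groups. The share changed by -3.05% of its WT value in homo mice (two-sided exact permutation test, p = 0.5, adjusted p = 0.75), by 0.405% in het mice (p = 1, exact permutation test, adjusted p = 1) and by -3.44% from het to homo mice (p = 0.5, exact permutation test, adjusted p = 0.75). OR genes outside the cluster summed to 2680, 2780 and 2772 CPM in WT and to 2958, 2871 and 2800 CPM in homo mice, so there the libraries of both genotypes did not overlap, but the share, which sets class I beside them, gave no difference beyond the spread.

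**Figure D2:**
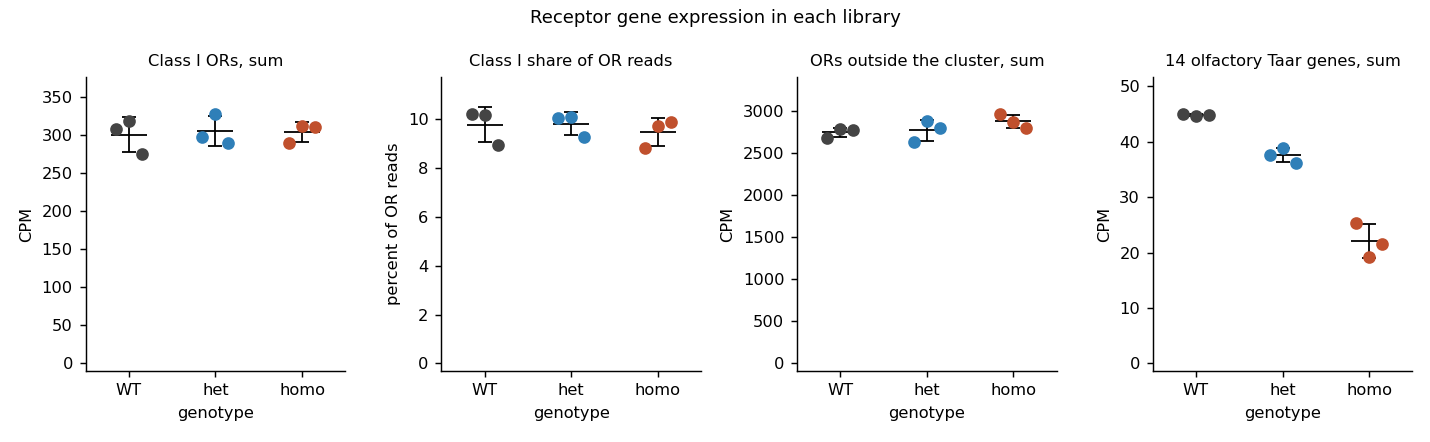
Summed class I OR expression, the class I share of OR reads, summed expression of the OR genes outside the cluster, and the sum of the 14 olfactory Taar genes in each of the 9 libraries (CPM or percent; replicates 1 to 3 from left to right, bars mean and SD of 3). The class I sum lies between 276 and 328 CPM with overlapping genotypes, whereas the Taar sum falls from about 44.8 CPM in WT to 22.0 CPM in homo mice.

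Within each genotype 1 library had a lower class I share than the other two: WT replicate 3, het replicate 3 and homo replicate 1. WT replicate 3 gave the lowest WT value for 63 of the 112 class I genes tested (56.2%), but for 34.6% of the OR genes outside the cluster and 36.1% of all genes tested. For het replicate 3 the percentages were 46.4% of class I genes, 31.9% of OR genes outside and 34.9% of all genes. For homo replicate 1 they were 47.3, 28.0 and 29.4%. The 3 libraries were picked by the same class I reads, so a higher class I percentage largely follows from that choice and is a description only. Acsm4, a gene of dorsal zone neurons, was at 338 CPM in WT replicate 3 against 412 and 414 CPM in the other WT mice, at 398 CPM in het replicate 3 against 366 and 394 CPM, and at 331 CPM in homo replicate 1 against 317 and 360 CPM. It was thus the lowest of its genotype in WT replicate 3 but not in the other two libraries. The dorsal gene Nqo1 was at 218 CPM against 225 and 211 CPM, at 219 CPM against 208 and 218 CPM, and at 210 CPM against 245 and 233 CPM in the same order, the lowest of its genotype in homo replicate 1. Among the 29 class I genes with at least 100 reads on average, deviations from the genotype mean had an average correlation of 0.150 between genes over the 9 libraries, against 0.0696 among 213 OR genes outside the cluster at that depth. These correlations share the libraries and their scaling and are given as a description. After the mean of each library was removed, the 28 pairs that follow each other along the chromosome among these 29 genes had an average correlation of 0.0383.

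Gene by gene, no class I OR passed the test in any comparison. edgeR's quasi-likelihood test with Benjamini-Hochberg adjustment over 20213 genes called 0 of 112 members at adjusted p under 0.05 in homo against WT mice, where it called 10 genes in all (0.0495%), 0 in het against WT mice, where it called 1 gene (0.00495%), and 0 in homo against het mice, where it called 23 genes (0.114%). DESeq2 with default settings called 0 members in each pair as well, among 99, 114 and 107 members with an adjusted p. At an unadjusted p under 0.05, edgeR listed 8 members (7.14%) in homo against WT mice beside 9.26% of all genes, 2 members (1.79%) in het against WT mice beside 3.25%, and 7 members (6.25%) in homo against het mice beside 10.4%. Among 949 OR genes outside the cluster the shares were 4.85, 2.95 and 5.16%. DESeq2 listed 7, 0 and 4 members at that unadjusted threshold. Leaving out het replicate 3 gave the single call of a member in any edgeR fit, Olfr550 in homo against het mice (log2 fold change 0.68, adjusted p = 0.043).

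Overlap of the libraries was also counted. The 3 homo and 3 WT libraries did not overlap for 12 members (10.7%), 8 higher and 4 lower in homo mice, beside 15.4% of all genes tested. In het against WT mice this held for 3 members (2.68%) beside 8.68% of all genes, and in homo against het mice for 16 members (14.3%) beside 14.1%. The fold changes centred close to 0: the median log2 fold change of class I genes was 0.0011 in homo against WT mice, with 56 genes above and 56 below 0, beside 0.074 for the 949 OR genes outside the cluster and -0.00057 for all genes. In het against WT mice the medians were 0.044, 0.0022 and 0.0033, and in homo against het mice -0.048, 0.067 and -0.0017, with 69 of 112 class I genes below 0. The 3 comparisons share libraries pairwise and are not independent of each other.

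**Figure D3:**
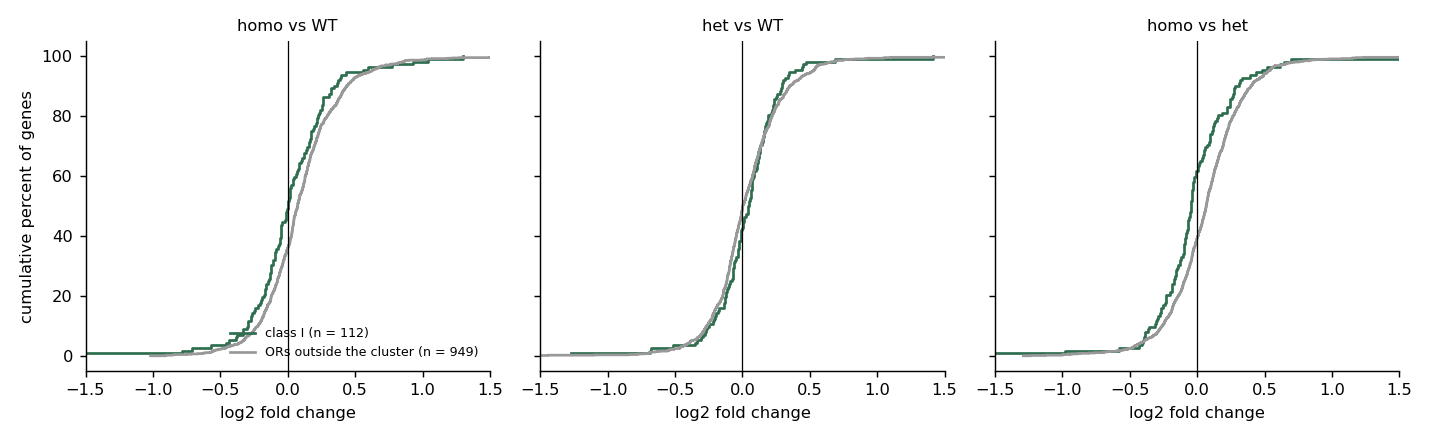
Cumulative percentage of genes against log2 fold change for 112 class I genes (green) and 949 OR genes outside the cluster (grey) in the 3 pairs of genotypes, with the axis limited to values within 1.5 of 0. The class I curve crosses 50% at 0.0011, 0.044 and -0.048, and the curve of the other OR genes at 0.074, 0.0022 and 0.067.

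The depth set how large a change could have been missed. The median standard error of a member's log2 fold change was 0.21 in each pair. In homo against WT mice the 95% interval lay wholly within a 2-fold change in either direction for 92 of the 112 genes, and within a 1.5-fold change for 48. The corresponding numbers were 97 and 51 in het against WT mice and 91 and 50 in homo against het mice. For the remaining genes the interval reached beyond that size.

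Genes for which the study made in situ probes covered the range of levels, and none of the 10 was called in any pair (edgeR adjusted p of at least 0.49). Olfr672, the most highly expressed member per length, had 8.95, 8.86 and 8.70 CPM in WT, 7.77, 9.11 and 6.26 CPM in het and 7.50, 8.86 and 8.28 CPM in homo mice. The WT and homo values overlapped (log2 fold change -0.11, SE 0.13, 95% interval -0.38 to 0.17). Olfr653 had 7.99, 8.98 and 6.69 CPM in WT and 7.15, 6.58 and 7.35 CPM in homo mice, also with overlap (log2 fold change -0.17, 95% interval -0.43 to 0.10). Olfr578 had 6.54, 5.96 and 5.34 CPM in WT and 5.95, 7.07 and 8.05 CPM in homo mice (log2 fold change 0.24, 95% interval -0.05 to 0.53). Olfr690 stood at 4.93 ± 0.589 and 4.37 ± 0.487 CPM, Olfr552 at 4.38 ± 1.05 and 4.04 ± 0.259 CPM, and Olfr692 at 3.23 ± 0.0967 and 3.26 ± 0.571 CPM in WT and homo mice (SD, n = 3 each). Olfr543, Olfr639 and Olfr644 had log2 fold changes of -0.10, 0.12 and 0.02. Olfr547 had 2 to 9 reads per WT library and 2 to 5 per homo library, and its 95% interval of -2.24 to 1.57 shows how little such a count can tell. Some models overlap: the annotated exons of Olfr643 overlap those of Olfr638, Olfr639 and Olfr640, those of Olfr615 overlap Olfr616, and those of Olfr560 overlap Olfr78, so reads could be split or lost between them, and the strand setting of the counting is not stated.

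A pair of class I receptors with well-known ligands was looked up outside the rule for named genes, after values had been seen. Olfr558, a receptor for short-chain fatty acids, had 6.67, 6.20 and 5.49 CPM in WT and 5.35, 7.48 and 6.38 CPM in homo mice, with overlap (log2 fold change 0.06 ± 0.15 SE, adjusted p = 0.94 by edgeR). Olfr544, which responds to azelaic acid, had 6.38, 5.25 and 5.10 CPM in WT and 4.83, 3.86 and 5.22 CPM in homo mice, with overlap through 1 homo library (log2 fold change -0.26 ± 0.14 SE, adjusted p = 0.62 by edgeR).

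The members with the smallest p-values in homo against WT mice were Olfr667, Olfr550, Olfr603, Olfr646 and Olfr641, and none was called. Olfr667 had 1.57, 1.13 and 1.24 CPM in WT, 1.18, 1.51 and 1.59 CPM in het and 2.39, 1.87 and 2.40 CPM in homo mice. Every homo library was above every WT and het library (log2 fold change against WT 0.77 ± 0.22 SE, adjusted p = 0.34 by edgeR). Olfr550 had 4.42, 3.79 and 3.90 CPM in WT, 3.85, 3.59 and 5.68 CPM in het and 5.74, 6.06 and 6.03 CPM in homo mice, again with every homo library on top (log2 fold change against WT 0.56 ± 0.16 SE, adjusted p = 0.34 by edgeR). Olfr646 had 0.642, 1.19 and 0.657 CPM in WT and 1.27, 1.71 and 1.90 CPM in homo mice (log2 fold change 0.93 ± 0.31 SE, adjusted p = 0.41 by edgeR). Olfr641 lay the other way, at 1.45, 1.28 and 2.05 CPM in WT and 0.740, 0.894 and 1.12 CPM in homo mice (log2 fold change -0.79 ± 0.27 SE, adjusted p = 0.42 by edgeR). Olfr646 and Olfr641 lie on the same side of Olfm5 and differed in opposite directions.

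Olfr603 and Olfr583 had the largest fitted changes of the members in homo against WT and homo against het mice, and both rested on few reads. Olfr603 had 9, 14 and 5 reads in the WT, 10, 4 and 8 in the het and 1, 2 and 2 in the homo libraries, a homo to WT ratio of 0.189 with a 95% exact counting interval of 0.0570 to 0.496 over summed reads. The homo libraries were the lowest of all 9 (edgeR log2 fold change -2.30, SE 0.69, adjusted p = 0.35). Its near-identical partner Olfr596 differs from it at 5 of 936 aligned coding bases. Olfr596 had 2.09, 1.96 and 2.90 CPM in WT and 1.34, 2.28 and 2.01 CPM in homo mice, with overlap (log2 fold change -0.30 ± 0.24 SE, adjusted p = 0.76 by edgeR). Olfr583 had 6, 7 and 2 reads in the WT, 0, 3 and 3 in the het and 8, 14 and 13 in the homo libraries. It gave the smallest p-value of homo against het mice, with a ratio of summed reads of 6.22 (95% exact counting interval 2.59 to 18.1, edgeR adjusted p = 0.24). Both counting intervals pool the libraries of a genotype and leave out the spread between mice, which the edgeR test includes. Olfr585, its partner, had 0.642, 0.886 and 0.387 CPM in WT, 0.499, 0.794 and 0.744 CPM in het and 0.634, 1.10 and 0.851 CPM in homo mice (homo against het log2 fold change 0.33 ± 0.36 SE, adjusted p = 0.80 by edgeR).

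Olfr572 was the fifth gene of homo against het mice after Olfr583, Olfr667, Olfr603 and Olfr550. It had 1.39, 1.21 and 1.76 CPM in het and 2.04, 2.03 and 2.20 CPM in homo mice without overlap (log2 fold change 0.52 ± 0.20 SE, adjusted p = 0.39 by edgeR). In het against WT mice the 5 smallest p-values belonged to Olfr675, Olfr676, Olfr640, Olfr644 and Olfr641, all with an edgeR adjusted p of 1.00. Olfr675 had 1.45, 2.14 and 1.62 CPM in WT and 2.42, 2.72 and 2.06 CPM in het mice, which overlapped (log2 fold change 0.45, SE 0.20). Its near-identical partner Olfr671 had a log2 fold change of 0.29 (SE 0.31). Olfr676 had 1.89, 2.35 and 1.70 CPM in WT and 0.890, 1.97 and 0.879 CPM in het mice (log2 fold change -0.69, SE 0.32).

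**Figure D4:**
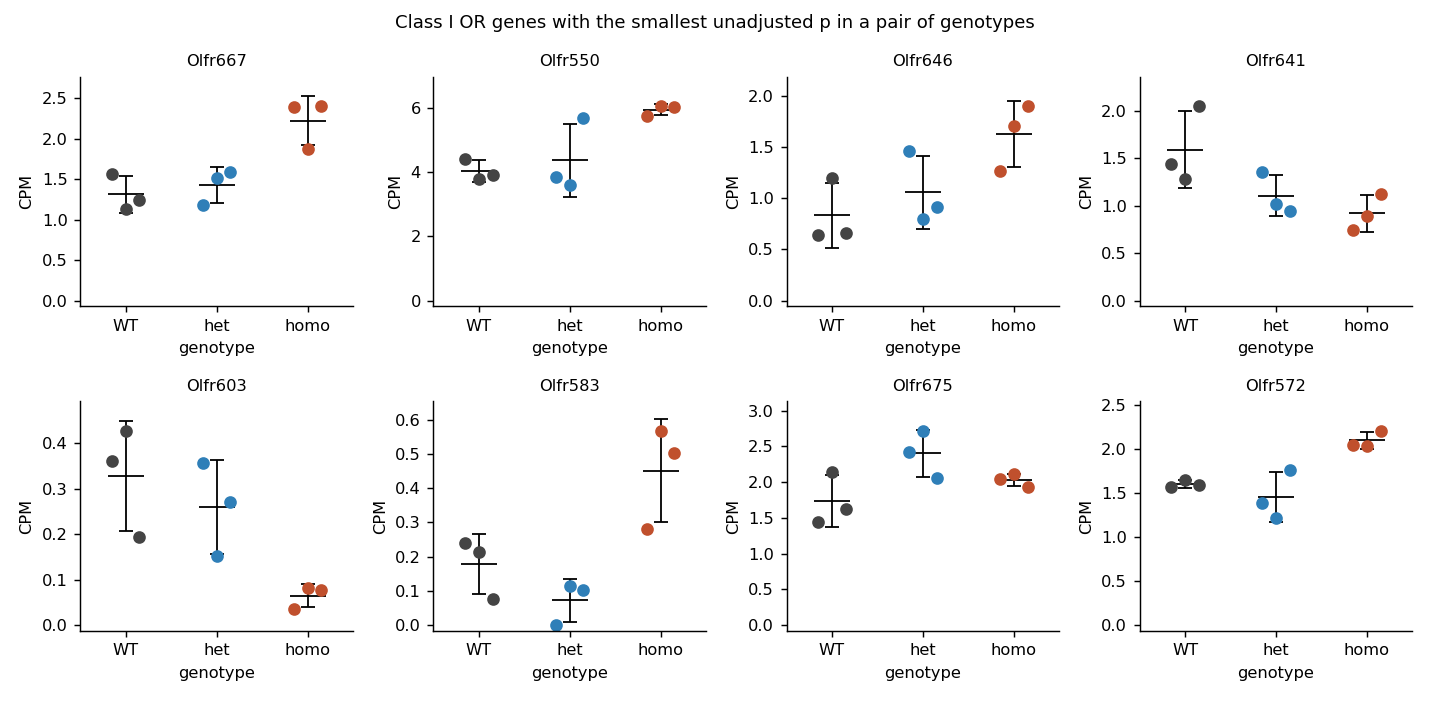
CPM of 8 class I OR genes with a small unadjusted p in a pair of genotypes, in each library (replicates 1 to 3 from left to right; bars, mean and SD of 3; each panel has its own axis). Homo libraries lie above all WT and het libraries for Olfr667, Olfr550, Olfr583 and Olfr572 and below them for Olfr603, and none of these genes passed the adjusted threshold.

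Members were also ranked by their spread between mice of a genotype. With 3 mice per genotype such values vary widely by sampling alone, and whether members differ in steadiness beyond that was not tested. Among the 29 genes with at least 100 reads on average, the 5 with the smallest edgeR quasi-likelihood dispersion, a measure of spread beyond the fitted trend, were Olfr691, Olfr557, Olfr592, Olfr652 and Olfr599, at 0.171 to 0.448. Olfr691 had 4.30, 4.28 and 4.64 CPM in WT, 3.99, 3.63 and 3.38 CPM in het and 3.14, 3.45 and 3.56 CPM in homo mice. All WT values lay above all others (homo against WT log2 fold change -0.38 ± 0.14 SE, adjusted p = 0.44 by edgeR). The largest dispersions were those of Olfr615, Olfr658, Olfr566, Olfr686 and Olfr552, at 1.26 to 2.19. Olfr615 varied most, with 8.63, 6.08 and 4.76 CPM in the WT mice alone. The median biological coefficient of variation was 0.103 for the 29 class I genes and 0.106 for 213 OR genes of that depth outside the cluster. These coefficients are drawn toward a trend shared by all genes, so similar medians are partly built in. The median quasi-likelihood dispersion over genes tested, taken gene by gene, was 0.913 for class I genes and 0.870 for OR genes outside the cluster.

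The cluster also holds genes that are no class I members. Olfm5, listed as E030002O03Rik and named through RefSeq, encodes an olfactomedin family protein and lies at positions 104153013 to 104164816 between class I genes. It had 62.5, 53.7 and 61.6 CPM in WT, 44.1, 39.5 and 39.8 CPM in het and 37.3, 42.5 and 41.9 CPM in homo mice, and was the only gene inside the span called in homo against WT (log2 fold change -0.55 ± 0.07 SE, adjusted p = 0.0029 by edgeR) and het against WT mice (-0.52, SE 0.07, edgeR adjusted p = 0.036). The het call was lost when WT replicate 1, WT replicate 3, het replicate 2, het replicate 3 or homo replicate 3 was left out, with adjusted p of up to 0.51 by edgeR, while the log2 fold change stayed between -0.60 and -0.49. The homo call was kept whichever library was left out, with adjusted p of at most 0.045 by edgeR. The 3 nearest members on the side of lower positions were Olfr643, Olfr646 and Olfr645, 15608, 43247 and 67548 bases away, with log2 fold changes in homo mice of 0.09, 0.93 and -0.01. On the other side Olfr648, Olfr649 and Olfr651 lay 12782, 24176 and 385317 bases away, with -0.11, -0.20 and -0.0011. None of these 6 receptors was called (edgeR adjusted p of at least 0.41). The annotated model of Olfr643 runs from position 103998800 to 104137405 and encloses those of Olfr645 and Olfr646, so its short distance depends on that model.

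**Figure D5:**
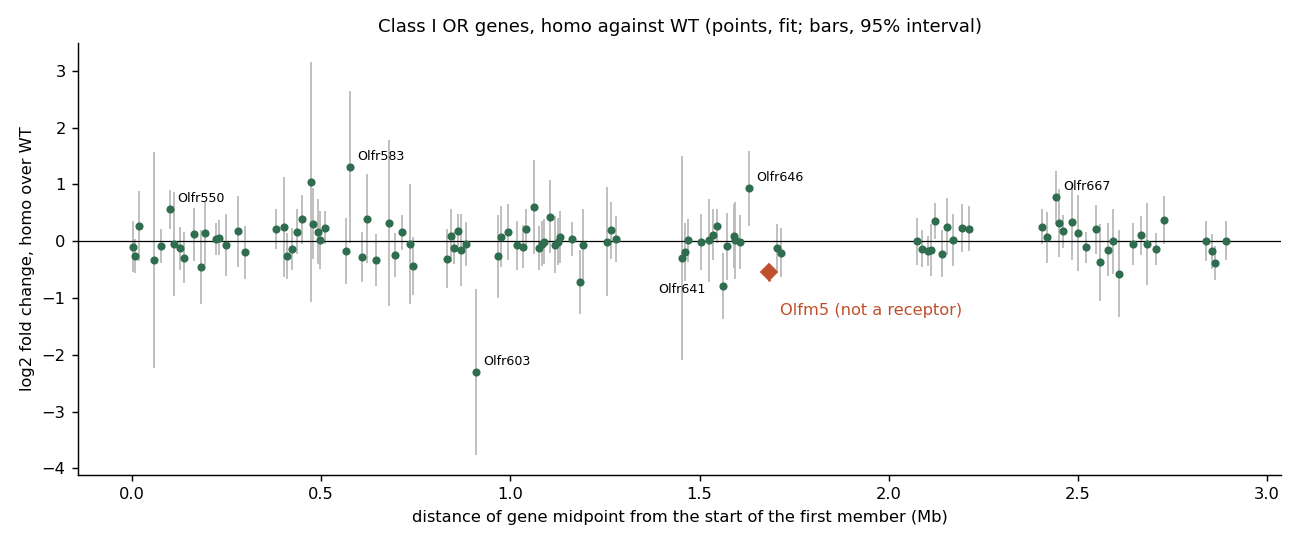
Log2 fold change of homo over WT mice for 112 class I OR genes against distance in Mb from the start of the first member (circles, edgeR fit; bars, 95% interval), with Olfm5 as a diamond. The values scatter around 0 along the whole cluster, and Olfm5, at -0.55, has a far shorter interval than the receptors beside it.

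Genes that act on OR choice and neuron maturation were read beside the receptors. Of 14 such factors, including Lhx2 and Ldb1, which act at OR enhancers, Lbr and Cbx5, which act in OR heterochromatin, and Rtp1 and Rtp2, which carry ORs to the membrane, edgeR called 0 in each pair, and 6 had an unadjusted p under 0.05 in homo against WT mice, where 9.26% of all genes did. Their median log2 fold change was 0.08 in homo against WT mice. Atf5, a transcription factor of the OR feedback response, had the smallest p of them, with 1103 CPM in WT and 1276 CPM in homo mice on average (log2 fold change 0.21, edgeR adjusted p = 0.24). The 10 mature neuron genes summed to 8059 to 8133 CPM in WT and 8291 to 8931 CPM in homo mice without overlap, with 0 called in any pair by edgeR and 3 at an unadjusted p under 0.05 in homo against WT mice. In that comparison 15.4% of all genes did not overlap. Of the 4 immature neuron genes 0 were called, and likewise 0 of the dorsal genes Nqo1 and Acsm4 and of the ventral genes Ncam2 and Nrp2. Acsm4 averaged 388 CPM in WT, 386 CPM in het and 336 CPM in homo mice (homo against WT log2 fold change -0.21, edgeR adjusted p = 0.42).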

How the data were processed

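PolyA-selected, strand-specific RNA-seq libraries of whole MOE were made from 3 mice of each genotype, as named in the sample titles. The authors deposited raw read counts per gene. Trimmomatic 0.36, HISAT2 2.1.0, HTSeq 0.6.1p1 and the builds GRCm38 and mm10 are named in the submitters' processing notes, whereas the study's methods name featureCounts as the counter. The annotation and strand setting are not given in the sources used here. A second deposited table, the counts divided by size factors, was not used. The 5 summary rows of the count table were left out of library sizes. Of the reads they account for, 57.4 to 60.0% were counted in genes and 16.9 to 19.4% mapped to several places. The latter were counted in no gene, which bears on near-identical receptors.

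The 20213 genes whose counts over the 9 libraries summed to 10 or more were fitted with edgeR 4.0.16 in R 4.3.3 (TMM, quasi-likelihood, genotype as the only term, all 9 libraries), with Benjamini-Hochberg adjustment at 0.05. Sums and shares were compared by exact permutation tests (scipy 1.17.1). The study describes the wild-type, heterozygous and homozygous mice as littermates. Which of them shared a litter or a cage is not given, so p-values measure the spread between these mice. Exon and coding lengths, positions and coding sequences came from GENCODE M21, and the name Olfm5 from RefSeq. Deviations between libraries were taken on log2(CPM + 0.1).

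The members and all lists were chosen with earlier results of these data known. Named genes are the 10 with an in situ probe in the study, the 10 highest per exon kb, the 5 with the smallest p in each pair, the 5 steadiest and 5 most variable with at least 100 counts on average, members with at most 3 reads, the 3 on each side of Olfm5, and pairs of 95% protein identity or more. Marker lists covered sustentacular, basal, respiratory, blood, ensheathing glia and vomeronasal genes. Alternatives were DESeq2 size factors, DESeq2 1.42.0, no or another filter (filterByExpr), a block for the replicate number, fits of the 6 libraries of a pair alone, other scalings and denominators of the sums, and leaving out each library. The fit was tested on simulated counts. Chosen after seeing the data were coding length for levels, sums with the other OR genes inside the span, and fits of the 6 libraries with at most 50 CPM of vomeronasal receptors.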

Additional observations from a re-analysis of the deposited data

How the results depend on the processing

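The count of 0 class I ORs called was obtained under every alternative run in all 3 pairs except 1: without het replicate 3, Olfr550 was called in homo against het mice (1 gene, edgeR adjusted p = 0.043, log2 fold change 0.68). Their median log2 fold change ranged over fits leaving out 1 library from -0.05 to 0.07, from -0.04 to 0.08 and from -0.07 to -0.01 in homo against WT, het against WT and homo against het mice, so its sign changed in the first 2 pairs. The small changes of the class I sum and share did not keep their direction over these fits, except that the share in homo against het mice stayed below 0. The sum ranged over these fits from -2.96 to 4.27% (homo against WT), -2.69 to 4.56% (het against WT) and -2.73 to 3.51% (homo against het), and the share from -6.96 to 0.289%, -3.64 to 3.15% and -6.01 to -0.116%. In the 6 libraries with few vomeronasal reads, which leave 3 WT, 2 het and 1 homo library and so no SD for homo mice, the sum changed by -3.82% in homo against WT mice and the share by -0.859% in het against WT mice. The lone homo library, replicate 1, had a class I share of 8.83%, below each WT and het library. The sum of homo against het mice turned to 0.276% with raw library sizes and to 0.0367% without Olfr598, the member with the most counts. The cause of these turns was not tested.

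Over all genes, DESeq2 called 71, 3 and 130 genes in the 3 pairs where edgeR called 10, 1 and 23. With only the 6 libraries compared edgeR called 47, 0 and 11, and without 1 library 8 to 33, 0 to 1 and 7 to 190, the 190 without het replicate 3. In homo against het mice it called 50 with no filter and 6 in the libraries with few vomeronasal reads, a fit that takes the lone homo library to vary like the other groups. Same-numbered libraries had correlations of deviations from -0.24 to 0.45, which do not settle whether the numbers pair the mice. The highest values, 0.39 and 0.45, were those of het with homo mice at replicates 2 and 3. With the replicate block, 0 members were called in each pair, and 12, 0 and 41 genes in all. Exact sign-flip permutation tests of sums and shares within numbers cannot give p below 0.25. The fold change of Olfm5 in homo against het mice, -0.02, ranged from -0.051 to 0.036 with 1 library left out. At a median of 60.3 reads per gene and library, the 95% interval in homo against WT mice lay within a 1.5-fold change for 48 of 112 members.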

Other observations

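The 9 OR genes inside the span with numbers outside Olfr543 to Olfr692 were Olfr33, Olfr64, Olfr65, Olfr66, Olfr67, Olfr68, Olfr69, Olfr78 and Olfr243. They were left out by number alone, and whether they are class I by sequence was not judged here. Their reads count among all OR reads but not in the class I sum or share. They summed to 28.4 to 35.1 CPM in WT, 31.0 to 36.5 CPM in het and 31.6 to 32.4 CPM in homo mice. By edgeR, 0 of them were called in each pair, with 0, 1 and 0 at an unadjusted p under 0.05 in homo against WT, het against WT and homo against het mice (9.26, 3.25 and 10.4% of all genes). Olfr78, a receptor for short-chain fatty acids and lactate, averaged 6.36 CPM in WT, 6.54 CPM in het and 7.19 CPM in homo mice (homo against WT log2 fold change 0.18, edgeR adjusted p = 0.78). The lowest sum fell in WT replicate 3, the library with the lowest class I sum.

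Of 25 genes inside the span that encode no receptor, 20 were tested. The Trim genes there, which encode ring finger proteins of innate immunity, held no gene called by edgeR in any pair.

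Among the marker lists, edgeR called 0 of 4 sustentacular, 0 of 3 basal, 0 of 3 respiratory, 0 of 1 tested blood, 0 of 3 ensheathing glia and 0 of 179 tested vomeronasal genes in each pair, with 1, 1, 1, 0, 0 and 118 at an unadjusted p under 0.05 in homo against WT mice, where 9.26% of all genes were. The respiratory markers summed to 4319 to 4863 CPM in WT and 3743 to 3818 CPM in homo mice without overlap, and 15.4% of all genes likewise did not overlap. Most of this sum was Bpifa1, a secreted airway protein, which averaged 3819 CPM in WT and 3029 CPM in homo mice (log2 fold change -0.33, edgeR adjusted p = 0.10). Foxj1, a regulator of ciliated cells, averaged 147 and 139 CPM (log2 fold change -0.08), and Scgb1c1, a secretoglobin, 597 and 602 CPM (0.01). The sustentacular markers summed to 3111 to 3251 CPM in WT and 2971 to 3154 CPM in homo mice, the basal markers to 111 to 122 and 101 to 112 CPM, and the ensheathing glia markers to 124 to 137 and 118 to 140 CPM. Their part in the class I values was not tested.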
